A study of Rattus norvegicus with 4 samples.

Results

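Cd24, Spn, Esm1 and Thy1 encode heavily glycosylated molecules of the cell surface or of secretion, and they were selected on the size of their signal difference between 2 rat prostate tumour lines. Every probe set that the platform annotation gives to 1 of these symbols was taken, which made 7 of the 8799 probe sets in the table (3 for Cd24, 2 for Thy1 and 1 each for Spn and Esm1) and 4 of 4736 named genes. The lines, G and MAT-LyLu, are both sublines of the Dunning R3327 rat prostatic tumour. Per the labels, the control line G does not metastasise and MAT-LyLu is highly metastatic. Biotinylated cRNA from total RNA was hybridised to 4 oligonucleotide arrays, 2 per line, and no treatment, time or genotype other than the line is given. The 2 arrays of a line are labelled as duplicates without mention of separate cultures, so their spread may be technical, and each line is 1 line, not a sample of metastatic or non-metastatic tumours.

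Cd24 is a very short protein held in the membrane by a glycosylphosphatidylinositol (GPI) anchor, a lipid that replaces a membrane-spanning stretch, and it carries many O-linked glycans that bind P-selectin and lectins of the Siglec family. Spn, also called CD43 or leukosialin, is a membrane-spanning sialomucin best known from leukocytes, where its cytoplasmic tail binds ezrin and moesin. Esm1, or endocan, is a small secreted proteoglycan with a dermatan sulfate chain, best known from endothelial cells that respond to vascular growth factors. Thy1, or CD90, is a GPI-anchored glycoprotein of the immunoglobulin superfamily, found on fibroblasts, neurons and rat thymocytes, and it binds integrins. Glycans are added to these proteins after translation, so an array reads only the transcript of the core protein.

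RefSeq promoter sequences (GRCr8 build) were matched for 2 of the 4 genes, Cd24 and Esm1, both of which were brighter in MAT-LyLu. Only this pair is shown because no promoter sequence was matched for Spn or Thy1. The stretches are the 250 bases before the annotated start, at chr20:48656227-48656476 (plus strand) for Cd24 and chr2:46609003-46609252 (plus strand) for Esm1, and capitals mark matches to the motifs named after them. The RefSeq span of Cd24 begins further upstream, so its stretch lies inside the annotated gene, while that of Esm1 lies outside the gene.
Cd24: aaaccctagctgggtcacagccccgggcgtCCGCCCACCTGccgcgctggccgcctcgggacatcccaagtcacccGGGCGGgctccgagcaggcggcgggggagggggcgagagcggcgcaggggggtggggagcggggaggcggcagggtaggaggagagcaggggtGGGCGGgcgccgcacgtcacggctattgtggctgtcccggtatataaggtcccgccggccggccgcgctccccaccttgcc
Esm1: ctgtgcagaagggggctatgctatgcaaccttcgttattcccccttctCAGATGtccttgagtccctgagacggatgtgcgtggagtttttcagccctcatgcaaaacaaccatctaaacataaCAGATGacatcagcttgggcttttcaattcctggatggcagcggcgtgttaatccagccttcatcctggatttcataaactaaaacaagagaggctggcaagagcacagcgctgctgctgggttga
Both strands were searched in the whole RefSeq window of 300 bases, which adds 50 bases past the start. The motifs were the TATA box hexamer TATAAA, the GC box core GGGCGG, the CCAAT box, the AP-1 site written as TGANTCA, and the general E-box CANNTG. Cd24 held 3 matches to GGGCGG, at positions -220, -174 and -81 from the start, and 1 to CANNTG at -215, which overlaps the first by 1 base. Esm1 held 2 matches to CANNTG, at -202 and -126, and 1 to TATAAA at 39 bases past the annotated start, outside the stretch shown. Of 33465 RefSeq promoter windows of this length, 33.1% held GGGCGG, 14.2% TATAAA and 72.1% CANNTG. Neither gene matched CCAAT, which 37.5% of windows held, or TGANTCA, which 7.33% held. The Cd24 window was 74.0% G and C with 34 CG pairs, against medians of 51.7% and 7 over all windows, and 96.0% of windows had a lower G and C content. The Esm1 window was 48.7% G and C with 8 CG pairs, near those medians. These matches describe the letters in the windows only.

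Signals below are the deposited probe set intensities, on a linear scale, and errors are SDs over the 2 arrays of a line. The background level of an array was set at the 95th percentile of 23 control probe sets for bacterial, yeast and mouse transcripts, and it ran from 1891 to 2311. Where both arrays of a line fell under that level, the transcript was not measured there, and the background level serves as its upper bound. Such folds are given as "at least", after each dim signal was replaced by the background level of its own array. All 7 probe sets passed the filter on low signals, which removed the lowest 25% by mean log2 signal (under 1492), but only X02002_at of Thy1 would have passed on its dim line alone. The differences between the lines chose these genes, so they are described here without a test.

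Cd24 was brighter in MAT-LyLu on each of its 3 probe sets. On U49062_at, the brightest, the signals were 397 and 409 on the G arrays and 16555 and 15239 on the MAT-LyLu arrays. The MAT-LyLu arrays were both high, the G arrays both low, and the lines did not overlap. The G signals were on average 19.6% of the background level, so the G transcript was not measured above background, and the mean of 15897 ± 931 in MAT-LyLu gave a fold of at least 7.67. On U49062_g_at, which was designed on the same GenBank sequence, the signals were 491 and 439 in G and 8733 and 8005 in MAT-LyLu, a fold of at least 4.04. On rc_AI171462_s_at, designed on a separate expressed sequence tag, they were 489 and 613 in G and 6553 and 7806 in MAT-LyLu, a fold of at least 3.46. This probe set ends in _s, which marks probes that can match related transcripts, and its MAT-LyLu arrays lay 19.1% apart against 8.64% on U49062_at. Each bound compares the bright signal of its own probe set with the background level, so the order of the 3 bounds is not an order of changes.

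Spn was read by 1 probe set, rc_AI045440_at. Its signals were 295 and 344 on the G arrays, the lowest of the 7 probe sets against the background (15.5% of it on average), and 13331 and 12625 on the MAT-LyLu arrays. The MAT-LyLu signals lay 5.59% apart, and the lines did not overlap. Means were 12978 ± 499 in MAT-LyLu and 319 ± 34.5 in G, and the fold over the background level was at least 6.27. With a single probe set, the signal of this sialomucin has no second reading on the array.

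Esm1, the secreted proteoglycan, was likewise read by 1 probe set, rc_AI233219_at. Its signals were 524 and 501 in G and 13950 and 14551 in MAT-LyLu. The MAT-LyLu arrays lay 4.31% apart, the closest agreement in the bright line among the probe sets brighter in MAT-LyLu. Means were 513 ± 16.2 in G and 14251 ± 425 in MAT-LyLu, and the fold over the background level was at least 6.88.

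Thy1 went the opposite way, with bright signals in G and dim ones in MAT-LyLu on both of its probe sets. On X02002_at the signals were 7140 and 7065 in G and 1395 and 1653 in MAT-LyLu. The G arrays lay 1.07% apart, and the MAT-LyLu arrays were under background but closer to it than the dim signals of the other 6 probe sets, at 72.7% of it on average. Means were 7103 ± 53.7 in G and 1524 ± 182 in MAT-LyLu, and the fold over the background level was at least 3.38. On rc_AA874848_s_at the signals were 11981 and 9068 in G and 378 and 590 in MAT-LyLu, a fold of at least 4.96. The G arrays lay 32.1% apart on this probe set, the widest gap in a bright line among the 7, and the lines did not overlap. X02002_at has the higher mean log2 signal and stands for Thy1 below, while by the mean of the linear signals rc_AA874848_s_at would, with its larger difference.

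**Figure D1:**
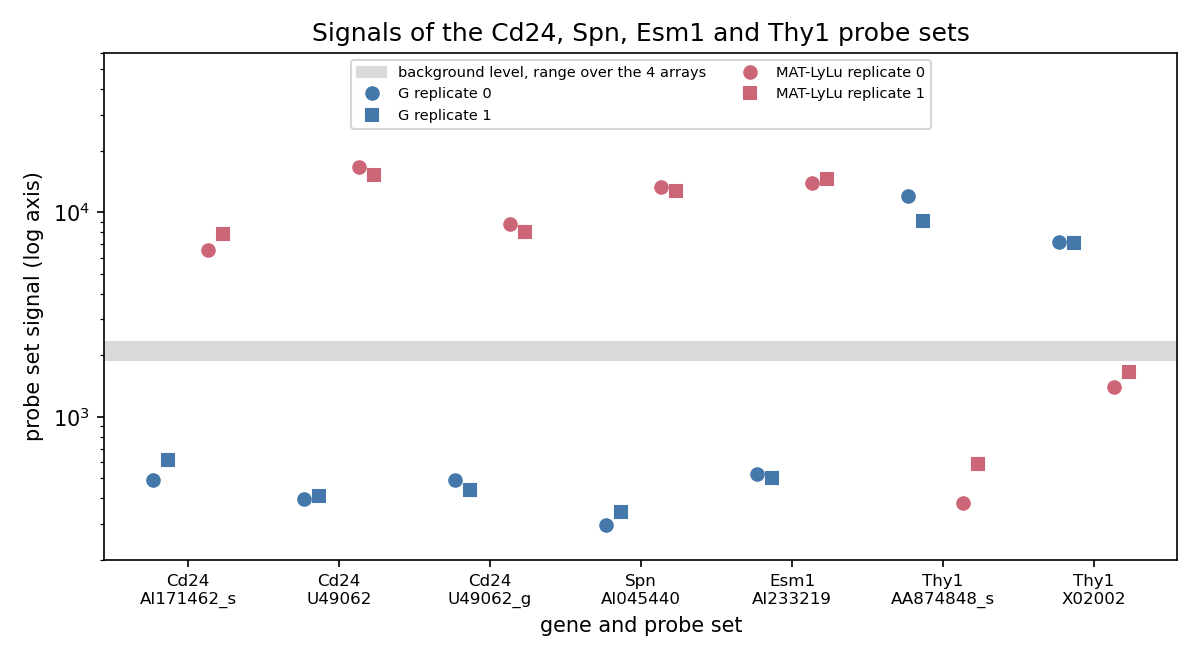
Probe set signals (log axis) of Cd24, Spn, Esm1 and Thy1 on each of the 4 arrays, with circles for replicate 0, squares for replicate 1, blue for G and red for MAT-LyLu; the grey band spans the background levels of the arrays, 1891 to 2311. Each of the 5 probe sets of Cd24, Spn and Esm1 lies under the band on both G arrays and above it on both MAT-LyLu arrays, and both probe sets of Thy1 show the reverse.

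All 7 probe sets crossed the background level between the lines. Such a crossing was uncommon in the table. Of the 6555 probe sets tested, 132 (2.01%) were under background on both G arrays and above it on both MAT-LyLu arrays, and 193 (2.94%) showed the reverse. Among 3867 genes, each represented by its tested probe set with the highest mean log2 signal, the counts were 71 (1.84%) and 93 (2.40%). The genes were picked for large differences, so their place in these classes is a consequence of the choice. Arrays of the lines did not overlap for any of the 7 probe sets, as for 67.4% of all probe sets tested. Of 13 genes with several tested probe sets whose brightest one was under background in G and above it in MAT-LyLu, 7 showed this on all their probe sets, Cd24 among them. Of 13 such genes with the reverse pattern, 10 showed it on all, Thy1 among them. In RNA of a whole culture, more cells carrying a transcript and more transcript per cell cannot be told apart.

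**Figure D2:**
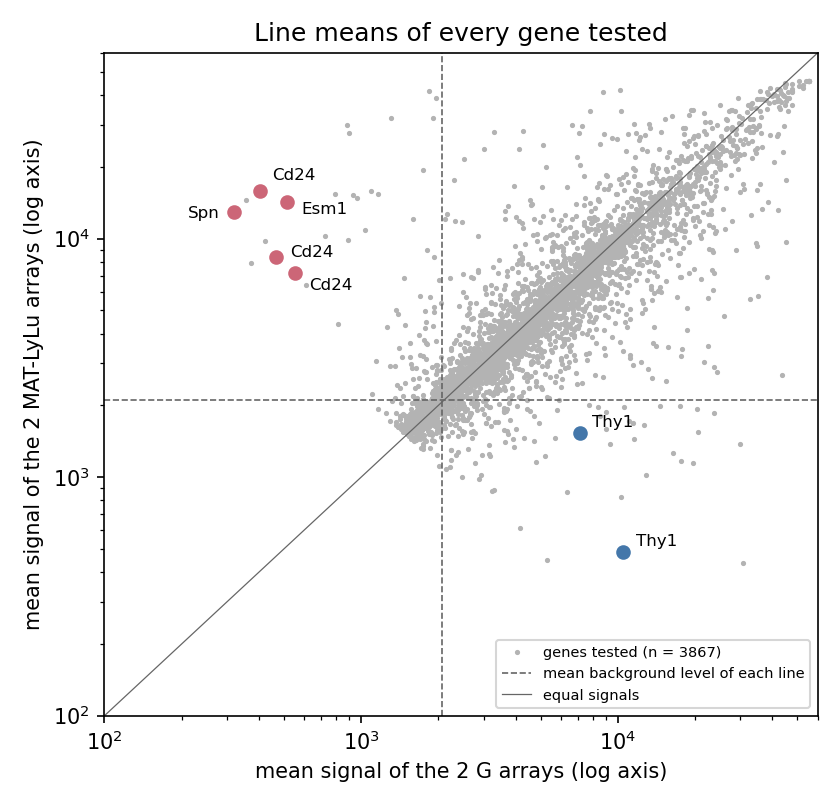
Mean signals of the 2 G arrays and the 2 MAT-LyLu arrays (both axes log) for the 3867 genes tested (grey) and for the 7 probe sets of Cd24, Spn, Esm1 (red) and Thy1 (blue). Dashed lines give the mean background level of each line, and the coloured points lie in the upper left and lower right fields, where the signal is under background in one line.

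The unbounded log2 differences (MAT-LyLu minus G, on the scale log2(signal + 16)) were 5.25 for Cd24, 5.28 for Spn, 4.75 for Esm1 and -2.21 for Thy1. Their sizes rest on dim signals under background and have no measured order. Raising the dim values to the background level moved them to 2.94, 2.65, 2.78 and -1.76. The direction was the same in each of the alternatives computed for the 7 probe sets, which reuse the arrays that picked the genes.

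**Figure D3:**
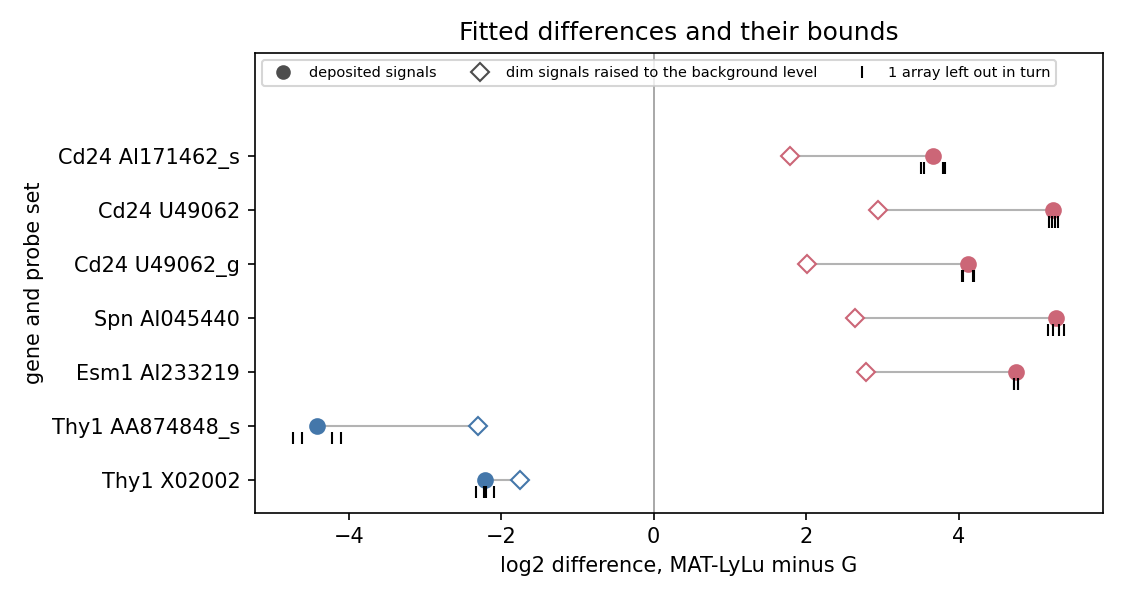
Log2 differences, MAT-LyLu minus G, of the 7 probe sets with the deposited signals (filled circles), with dim signals raised to the background level (open diamonds) and with 1 array left out in turn (ticks). The deposited values of Cd24, Spn and Esm1 run from 3.67 to 5.28 and those of Thy1 from -4.42 to -2.21, and every diamond lies nearer to 0 on the same side.

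The genes whose profiles were most like each of the 4 were found by the Euclidean distance between log2 profiles over the 4 arrays, each profile centred on its own mean. With 2 arrays a line this mainly orders genes by the size of their difference, and it uses signals under background. Cd24, Spn, Esm1 and Thy1 were left out as candidates. Between Cd24 and Spn the distance was 0.13 log2 units, less than from either of them to any gene listed next. Klhl41 (a kelch protein of muscle), Fabp4 (a fatty acid carrier) and Cav1 (the main protein of caveolae) were nearest to Cd24, at distances of 0.19, 0.23 and 0.33 log2 units, and the same 3 genes were nearest to Spn. Klhl41 was higher in MAT-LyLu by at least 6.98-fold, Fabp4 by at least 14.4-fold and Cav1 by at least 13.4-fold. Nearest to Esm1 were Penk (the enkephalin precursor), Cav1 and Scd (a fatty acid desaturase), at 0.17, 0.19 and 0.20. Nearest to Thy1 were Dnph1 (a nucleotide hydrolase), Irgm2 (an interferon-inducible GTPase) and Ccnd3 (cyclin D3), at 0.16, 0.17 and 0.18, with signals 4.47-fold, at least 2.48-fold and 4.68-fold lower in MAT-LyLu.

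Other genes of the same kinds of molecule were compared between the lines with limma across all 3867 genes, at a Benjamini-Hochberg adjusted p under 0.05, with Cd24, Spn, Esm1 and Thy1 left out of every list. At this threshold 14.4% of all genes were higher in MAT-LyLu, 20.5% were lower and 34.9% passed in either direction, and the median log2 difference was -0.02. The split depends on the scale of the arrays: 557 genes were higher and 792 lower on the deposited scale, against 708 and 695 after quantile normalization and 680 and 712 after median scaling. Errors of the fitted log2 differences are standard errors (SE). Probe sets ending in _s read Dpep1, Prnp, Cd44, Lamp2, Pdpn, Sdc1, B4galt6, Col1a1, Col1a2, Uchl1, Krt8 and Ptprc among the genes named below. Lox and Loxl1, also named below, were read by such probe sets too. Acta2 was read by a probe set ending in _f and Dcn by one ending in _i, and how specific these are was not tested.

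GPI-anchored proteins, the class of Cd24 and Thy1, included genes called in either direction, beside 14.4% higher and 20.5% lower over all genes. Of 30 tested, 2 rose, 4 fell and 24 did not pass, and the median log2 difference was 0.01. Nrn1, or neuritin, a GPI-anchored protein that promotes neurite growth, rose 3.14-fold (6949 ± 245 in G and 21889 ± 2240 in MAT-LyLu; log2 difference 1.65, SE 0.10, adjusted p = 1.2e-06). Plaur, the urokinase receptor, rose 1.77-fold. The membrane dipeptidase gene Dpep1 fell 2.35-fold, the glypican gene Gpc1 1.83-fold and the prion protein gene Prnp 1.75-fold. Cd55, a complement regulator, had 2 tested probe sets, of which 1 was called higher and the one with the higher mean log2 signal missed the threshold (adjusted p = 0.68 in limma). With genes represented by linear means, Cd55 rose too, through a probe set ending in _s (log2 difference 1.99, adjusted p = 9.7e-07 in limma), and this gene was picked out after its values had been seen.

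Mucin-like and sialylated membrane proteins, the class of Spn, were few on the array. Of 12 tested, 1 rose, 3 fell and 8 did not pass, with a median log2 difference of -0.06. The lysosomal membrane glycoprotein gene Lamp1 fell 5.86-fold (32798 ± 940.5 in G and 5584 ± 333 in MAT-LyLu; adjusted p = 3.1e-08), with 2 of its 3 probe sets lower, and Lamp2 fell 1.59-fold. Pdpn, which encodes the sialomucin podoplanin, fell at least 2.70-fold. Cd44, the hyaluronan receptor, rose 2.87-fold. Ptprc, the leukocyte common antigen CD45 and itself a large sialylated molecule, had signals of 3285 and 3555 in G and 3382 and 3371 in MAT-LyLu, with a fitted log2 difference of -0.02 (SE 0.09) that missed the threshold.

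Proteoglycan core proteins, the class of Esm1, included genes called in either direction, as did all genes tested (14.4% higher, 20.5% lower). No test set the list against that share. Of 27 tested, 3 rose, 7 fell and 17 did not pass, with a median log2 difference of -0.05. The small leucine-rich proteoglycan genes Lum, Bgn and Dcn, whose products bind collagen or matrix, fell at least 14.6-fold, 6.10-fold and at least 5.26-fold. Among the genes that rose, the syndecan gene Sdc1 was 5.05-fold higher (2322 ± 108 in G and 11814 ± 1055 in MAT-LyLu; adjusted p = 8.1e-08), and Cd44 is on this list too. Without G replicate 0, 5 members rose in place of 3.

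Enzymes and transporters that build glycans, proteoglycan chains and GPI anchors showed small differences. Of 39 tested, 7 rose, 5 fell and 27 did not pass, with a median log2 difference of -0.01, and 2 rises and no fall reached 2-fold by their fitted values. B4galt6, a galactosyltransferase of glycolipid synthesis, rose at least 2.07-fold, Ugcg, the glucosylceramide synthase, at least 1.54-fold (1 of its 2 probe sets) and Mgat2, of N-glycan branching, at least 1.58-fold. Ugdh, which makes the UDP-glucuronic acid used for glycosaminoglycan chains, rose 1.73-fold from 10490 ± 137 to 18196 ± 1099 (adjusted p = 8.8e-05). Rpn2, a subunit of the oligosaccharyltransferase, fell 1.57-fold. Without MAT-LyLu replicate 1 the falls numbered 2, and without G replicate 0 they numbered 3.

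A further list held known binding partners of the 4 proteins, kinases that signal below GPI anchors, and Met, the receptor of a growth factor. Over all genes, 14.4% were higher and 20.5% lower. Of 22 tested, 5 rose, 1 fell and 16 did not pass, with a median log2 difference of 0.00. Ezr, which encodes the ezrin that binds the Spn tail, rose 2.16-fold from 5600 ± 294 to 12103 ± 356 (adjusted p = 6.7e-06). The integrin subunit gene Itgb1 rose 1.80-fold, the galectin gene Lgals3 1.51-fold and Met, the receptor of hepatocyte growth factor, 1.45-fold. The galectin gene Lgals9 fell 2.45-fold, with 1 of its 2 probe sets past the threshold. Icam1, an adhesion molecule, had 1 of 2 probe sets lower while the one with the higher mean log2 signal missed the threshold (adjusted p = 0.12 in limma). With linear means Icam1 fell too (log2 difference -1.06, adjusted p = 5.5e-05), which made 2 falls, and it was likewise picked out after its values had been seen. Without G replicate 0, and also without G replicate 1, the falls numbered 2.

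**Figure D4:**
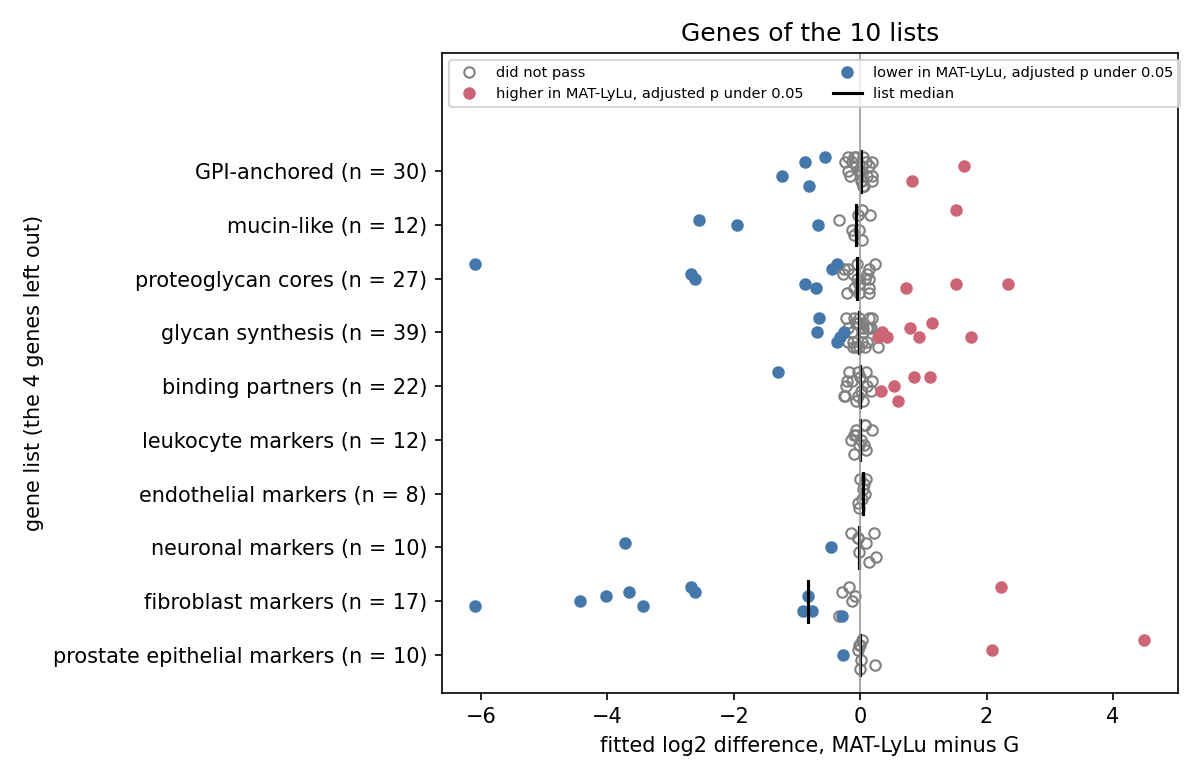
Fitted log2 differences, MAT-LyLu minus G, of the tested genes in 10 lists, with Cd24, Spn, Esm1 and Thy1 left out. Filled points passed at an adjusted p under 0.05 (red higher, blue lower), open points did not, and black bars are list medians; the fibroblast list has a median of -0.83, and the other 9 medians lie between -0.06 and 0.04.

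Since Spn, Esm1 and Thy1 are known from leukocytes, endothelium, fibroblasts and neurons, markers of these cells were read beside them. Of 24 leukocyte markers on the array, 11 were above background on both arrays in each line, and the summed signal was 63160 to 64469 in G and 59450 to 63692 in MAT-LyLu. Of the 12 tested, none passed in limma at an adjusted p under 0.05, none had an unadjusted p under 0.05, and Cd3g was under background on all 4 arrays. Of 10 endothelial markers, 6 were above background in each line, with summed signals of 31754 to 35097 in G and 33404 to 35060 in MAT-LyLu. Of the 8 tested, none passed in limma and none had an unadjusted p under 0.05. The defining markers Kdr and, closer to that level, Pecam1 were under background on all 4 arrays, and Vwf had a log2 difference of 0.00 (SE 0.09). The part of other cell types in the Spn and Esm1 signals was not tested. With no filter on low signals, 2 leukocyte markers were called lower in MAT-LyLu, Cd48 and Srgn, both picked out after their values had been seen. Cd48 was under background on all 4 arrays, and Srgn on 1 G array and both MAT-LyLu arrays, so neither difference was measured.

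Most of the fibroblast markers tested were lower in MAT-LyLu, as Thy1 was. Of 17 tested, 11 fell, 1 rose and 5 did not pass (Sparc, Acta2, Lox, Loxl1 and Col5a2), and the median log2 difference was -0.83 against -0.02 for all genes. Sparc had 4 tested probe sets, of which 3 passed the threshold, and Acta2 had 3, of which 1 passed. For both genes the probe set with the highest mean log2 signal missed it. Besides Lum, Bgn and Dcn, the collagen genes Col1a1 and Col1a2 fell 16.2-fold and at least 14.2-fold, and Eln, the elastin gene, at least 11.3-fold. The gene that rose was S100a4, a calcium-binding protein, at 8763 ± 836 in G and 41223 ± 861 in MAT-LyLu, a fold of 4.71. It and the 5 that did not pass were named after their values had been seen. The summed signal of the 19 fibroblast markers on the array was 325234 to 336318 in G and 150193 to 157166 in MAT-LyLu. Their part in the Thy1 signal was not tested. Among 10 tested neuronal markers, 2 fell (Uchl1, a deubiquitinase, at least 9.75-fold, and the neurofilament gene Nefh 1.37-fold, with 1 of its 2 probe sets past the threshold), none was called higher by limma and 8 did not pass; 3 had an unadjusted p under 0.05.

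Markers of the labelled tissue were read in the same way. For scale, 33.8% to 40.4% of all rat probe sets on a single array were under background. Of the 24 leukocyte markers, 11 were above it on both arrays in each line. Of 15 prostate epithelial markers on the array, 6 were above background on both G arrays and 7 on both MAT-LyLu arrays. Of the 10 tested, 2 rose, 1 fell and 7 did not pass. Of the keratin genes, Krt8 rose 22.5-fold (only 1 G array read it above background), and the protease inhibitor gene Spint2 4.23-fold. The fall, of Jup (plakoglobin), was 1.20-fold. It lost the call when G replicate 1 was left out, at an adjusted p = 0.14 in limma, and when either MAT-LyLu array was, at 0.15 (replicate 0) and 0.12 (replicate 1). Krt18 had signals of 2015 and 1452 in G and 1578 and 1871 in MAT-LyLu. Epcam, the basal keratin gene Krt14 and the prostatic secretory genes Pbsn, Tgm4 and Msmb were under background on all 4 arrays, and Cdh1 was not analysed here.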

How the data were processed

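The authors deposited linear signal intensities, 1 per probe set and array, made with MAS5 (the Affymetrix summary of a probe set's probes) per the submitters' processing notes. Its version, scaling target and filters are not stated there. Names came from the platform annotation, updated by gene identifier (6994 of 7018 probe sets with 1 symbol matched in the RefSeq table of GRCr8). Trimmed means of the arrays (2% off each tail) differed by at most 7.83%, under the 10% limit set for scaling, so the deposited scale was kept. Values were tested as log2(signal + 16), after 59 control probe sets and the lowest 25% of the others were left out, with limma 3.58.1 in R 4.3.3 (lmFit, eBayes with trend, 2-sided, Benjamini-Hochberg). The procedure was tested on simulated data. The number of arrays limits the precision. Genes named were all probe sets of the 4 genes, set defining markers, and the 3 nearest profiles per gene outside these 4. From each list up to 5 genes were named, those with the smallest p past the threshold whose arrays did not overlap. The members, lists and background level were chosen with earlier results of these data known. The mean used by the filter and to pick a gene's probe set had been set in advance without its scale; linear means were run first, and mean log2 signals were adopted after the results of both had been seen, because they gave the counts of an earlier analysis of these data. Folds were likewise moved from log2(signal) to log2(signal + 16) after their values had been seen. Alternatives were the pseudocount (1, 64), the filter (none, 50%), quantile and median scaling, no trend, a floor at background, a replicate block, each array left out and the mean of a gene's probe sets, with linear means added after seeing the data. Lists covered GPI-anchored, mucin-like and proteoglycan proteins, glycan synthesis, binding partners, and leukocyte, endothelial, fibroblast, neuronal and prostate epithelial markers. Protein sequence features were not analysed here.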

Additional observations from a re-analysis of the deposited data

How the results depend on the processing

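No direction reversed among 94 alternative values of the 7 probe sets or 518 of the 35 genes named from the lists. A pseudocount of 64 moved the log2 differences of Cd24, Spn and Esm1 to 5.09, 5.09 and 4.63; a floor at the background level moved Cd24, Spn, Esm1 and Thy1 to 2.94, 2.65, 2.78 and -1.76; and the mean of all probe sets gave 4.35 for Cd24 and -3.32 for Thy1. With 1 array left out they ran from 5.19 to 5.31 for Cd24, 5.17 to 5.38 for Spn, 4.72 to 4.78 for Esm1 and -2.33 to -2.09 for Thy1. GPI-anchored genes that rose numbered 4 with median scaling. Proteoglycan genes that rose numbered 5 with the mean of all probe sets, and 3 to 5 with 1 array left out. Glycan synthesis genes that rose numbered 4 with the lowest 50% left out, and falls ran from 2 to 4 with 1 array left out. Binding partners that fell numbered 2 with the mean of all probe sets, and 1 to 2 with 1 array left out. Leukocyte markers called lower numbered 2 with no filter, both under background in MAT-LyLu. Neuronal falls numbered 1 with the lowest 50% left out and 1 when a gene's probe sets were averaged (Nefh, adjusted p = 0.052), and rises ran from 0 to 1 with 1 array left out. Prostate epithelial falls numbered 0 with quantile normalization and 0 with median scaling, and 0 to 1 with 1 array left out. Linear means for the filter and the choice of probe sets were an alternative chosen after seeing the data. They gave 568 genes higher and 796 lower, and -4.42 for Thy1 (through rc_AA874848_s_at). Binding partners that fell then numbered 2, GPI-anchored genes that rose 3 and fibroblast markers that fell 12. Fbln5 was tested under linear means and with no filter on low signals, but not in the main fit. The cause of the other changes was not tested. Deviations of same-numbered arrays from their line means correlated at 0.17 over 6555 probe sets, and the labels do not say what a number shares. With the replicate number as a block, 617 genes rose and 883 fell against 557 and 792, and binding partners that fell numbered 2. All 7 probe sets were under background in one line, which limits their folds to bounds.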
